A study of Mus musculus with 3 samples.

Results

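The sarcoglycan and sarcospan genes Sgca, Sgcb, Sgcd, Sgce, Sgcz and Sspn were described in RNA-seq libraries of 3 gene-edited mouse myoblast lines. They were chosen by name, with no expression value in the rule, and are 6 of 35562 genes with 29 of the 120686 transcripts that could be matched to the annotation. The lines, numbered 66, 67 and 72, were grown from Pax7-nGFP+ satellite cells, the resident stem cells of muscle, purified by FACS from mouse-mouse chimeras. All 3 carry the genotype Dmdmdx; Pax7-nGFP, that is the mdx mutation of the dystrophin gene, edited with CRISPR/Cas9 so that the mutant exon is skipped, and a nuclear GFP driven by Pax7. The edited iPSCs had been reprogrammed from male MEFs and injected into Pax7Cre/ERT2; Rosa26-lsl-DTA blastocysts, in which tamoxifen ablates host Pax7+ cells. Which line came from a tamoxifen-injected chimera is not in the sample labels, nor is the age of each chimera, so the lines were treated as 1 condition with n = 3 and no condition was compared with another. Unedited and wild-type myoblasts were not analysed here. The spread given below is the spread between lines that share an edited iPSC source, each read in 1 library.

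Sarcoglycans are single-pass membrane glycoproteins of the dystrophin-glycoprotein complex, which joins the actin cytoskeleton of a muscle fibre to the extracellular matrix. In skeletal muscle the alpha, beta and delta proteins (Sgca, Sgcb, Sgcd) are part of a tight unit, and recessive loss of any of them causes a limb-girdle muscular dystrophy. Epsilon-sarcoglycan (Sgce) is a relative of the alpha protein found in many tissues, zeta-sarcoglycan (Sgcz) is a relative of the delta protein, and sarcospan (Sspn) is a small protein that crosses the membrane several times and binds the sarcoglycan unit. The unit is lost from the membrane of dystrophin-deficient fibres, a loss that is known at the level of protein.

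The libraries held between 66972426 and 73274315 estimated counts. All 8 myoblast marker genes stood at or above 10 TPM (transcript abundance per length, scaled to 1000000 per library) in every line. Markers of other cell types differed by list. None of 5 endothelial markers and 1 of 5 Schwann cell and 1 of 4 immune markers reached 1 TPM in every line, with summed levels of at most 2.12, 2.203 and 4.55 TPM. Of 8 fibroblast markers, 3 reached 1 TPM in every line and Lum and Dpt were listed at 0 throughout. Of 8 smooth muscle and pericyte markers, 5 reached 1 TPM in every line, among them Des, which myoblasts also express, while Myh11, Cnn1 and Pdgfrb stayed below 1 TPM. Others of that list were high and varied between the lines, with Acta2 at 209.4, 291.7 and 580.9 TPM, Rgs5 at 356, 137 and 172 TPM and Tagln at 61.0, 49.5 and 102.8 TPM.

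RNA of the alpha, beta and epsilon sarcoglycans and of sarcospan was plentiful in every line, delta was scarce, and zeta was at the limit of detection. Of the 6 genes, 4 reached 1 TPM in every line, beside 33.8% of all 35562 genes, and the same 4 also reached 10 TPM in every line, beside 22.6% of all genes.

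Sgca, which encodes the alpha protein, lies on the minus strand of chromosome 11 (chr11:94962791-94976327, GRCm38). Its level in lines 66, 67 and 72 was 133.7, 100.6 and 107.6 TPM, a mean of 114 ± 17.4 TPM (SD, n = 3), which is above 94.4% of the 25510 genes detected. Line 66 was the highest and the other two lines lay close together. Sgcb, which encodes the beta protein (chr5:73632749-73647790, minus strand), stood at 36.3, 45.2 and 44.1 TPM in lines 66, 67 and 72, with a mean of 41.8 ± 4.86 TPM (SD, n = 3). Here line 66 was the lowest, so that the ratio of the Sgca level to the Sgcb level was 3.69 in line 66 against 2.23 in line 67 and 2.44 in line 72.

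Sgce, which encodes the epsilon protein (chr6:4674350-4747207, minus strand), stood at 28.1, 28.0 and 29.1 TPM, with a mean of 28.4 ± 0.595 TPM (SD, n = 3). The lines differed little, with a coefficient of variation of 2.10%, and 3.87% of the 12528 genes whose mean was 1 TPM or more had a lower one (median 10.6%). Sspn (chr6:145931641-145965223, plus strand) stood at 22.5 TPM in line 66, 26.0 TPM in line 67 and 35.0 TPM in line 72, a mean of 27.8 ± 6.44 TPM (SD, n = 3). Line 72 was well above the others, and the coefficient of variation of 23.2% was higher than that of 83.4% of genes. These levels rest on 4875 to 7285 estimated counts in a line for Sgca, 5530 to 6316 for Sgcb, 1733 to 1935 for Sgce and 4657 to 6759 for Sspn.

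Sgcd, which encodes the delta protein, lies on the same chromosome as Sgca (chr11:46896253-47988969, minus strand). It had 40 estimated counts in line 66, 72 in line 67 and 132 in line 72, and its level was 0.600, 1.21 and 2.13 TPM, with a mean of 1.31 ± 0.769 TPM (SD, n = 3). No other member that was detected above the floor of 3 counts varied as much, with a coefficient of variation of 58.7%. Sgcz (chr8:37522298-38661508, minus strand) had 2, 1 and 0 estimated counts, all at or under the floor of 3 counts that a count of 0 allows, which is between 0.0409 and 0.0448 CPM (counts scaled to 1000000 per library) here. Its RNA was not distinguishable from 0 at this depth.

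**Figure D1:**
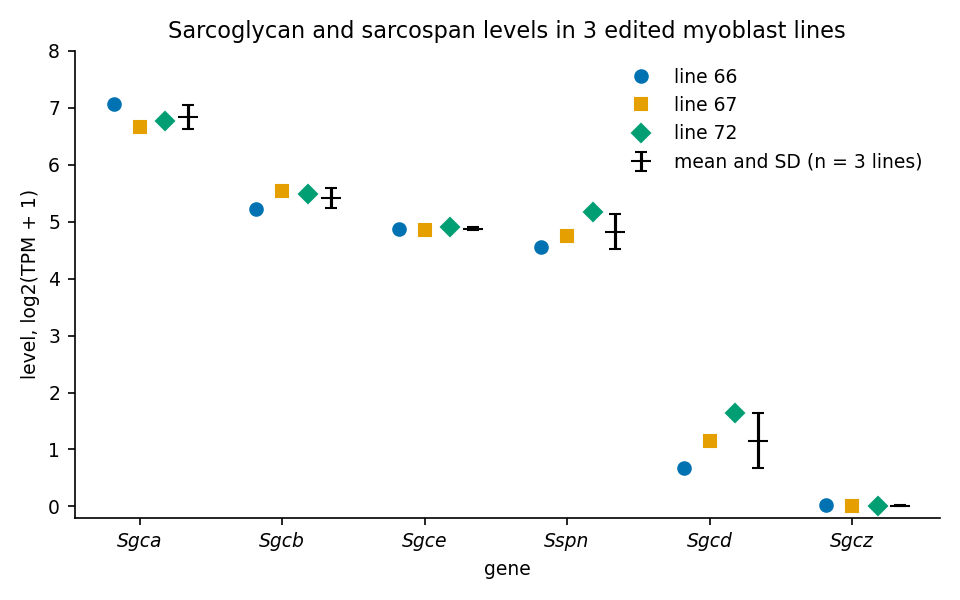
Level of the 6 genes as log2(TPM + 1), with a point for each of lines 66, 67 and 72 and a bar for the mean and SD. Sgca stood at 100.6 to 133.7 TPM and Sgcd at 0.600 to 2.13 TPM, while the points of Sgce and Sspn overlapped.

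By mean level per length, the order was Sgca, Sgcb, Sgce, Sspn, Sgcd, Sgcz, and 4 of the 5 neighbouring pairs had ranges over the lines that did not overlap. The exception was Sgce and Sspn. Their log2 ratio (TPM + 1) was 0.31, 0.10 and -0.26 in lines 66, 67 and 72, so that Sgce was the higher in lines 66 and 67 and Sspn in line 72 (mean 0.05 ± 0.29, SD, n = 3, two-sided exact sign-flip permutation test, p = 0.75). Each of the other pairs kept its order in 3 of 3 lines, which gives the smallest p that the exact sign-flip test can reach with n = 3 (p = 0.25), so no order could pass a threshold of 0.05. For Sgca over Sgcb the mean log2 ratio was 1.42 ± 0.38 (SD, n = 3).

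Part of the Sgca level rested on short, partial transcripts. Sgca-203 and Sgca-204 held 12.6% ± 0.845 of the estimated counts of the gene but 41.5% ± 1.43 of its TPM (SD, n = 3), because TPM divides by length. When all counts of a gene were instead divided by the effective length of its transcript with the most counts, an alternative chosen after seeing the data, Sgca stood at 50.4 ± 9.03, Sgcb at 26.8 ± 3.06, Sgce at 18.3 ± 0.296, Sspn at 17.9 ± 3.86 and Sgcd at 0.849 ± 0.485 counts per kb at 1000000 counts per library (SD, n = 3). The order was the same, and the lead of Sgca over Sgcb was smaller. On CPM, which are not per length, Sgcb stood above Sgca, with means of 86.4 and 83.1.

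**Figure D2:**
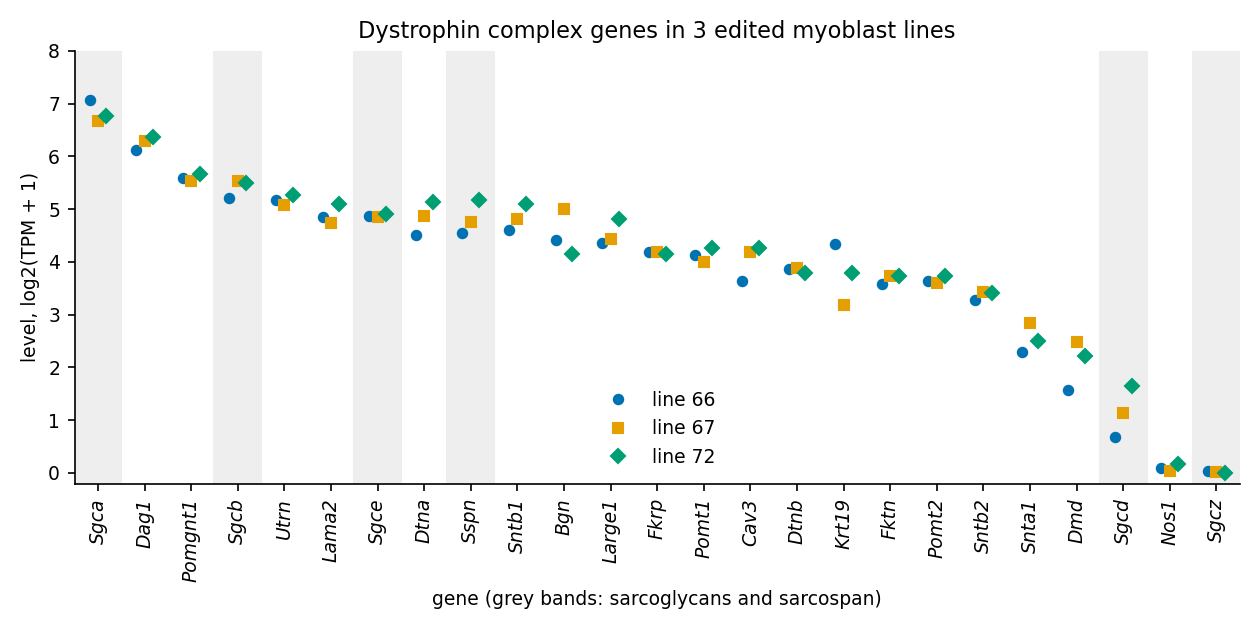
Level of the 6 genes (grey bands) and of 19 partner genes of the dystrophin complex as log2(TPM + 1), ordered by mean, with a point for each line. Sgca was the highest of the genes drawn, with 41.5% of its TPM on average on 2 partial transcripts. Sgcd, Nos1 and Sgcz lay at the low end, next to Dmd.

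Among 19 partner genes, which cover dystrophin and its relatives, the matrix and cytoplasmic partners and the enzymes that glycosylate dystroglycan, 18 reached 1 TPM in every line and 14 reached 10 TPM. The gene below 1 TPM was Nos1, the neuronal nitric oxide synthase. The median of the mean levels was 28.1 TPM over the 6 genes and 16.5 TPM over the partners. Dag1, which encodes dystroglycan, the laminin receptor of the complex, stood at 68.6, 77.5 and 81.9 TPM, between Sgca and Sgcb. Dmd, the edited gene, stood at 1.97, 4.61 and 3.66 TPM, above Sgcd in every line, and utrophin (Utrn), its close relative, at 35.2, 32.8 and 37.3 TPM.

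The lines were then compared with each other for each gene, on TPM + 1. Of the 5 members whose mean was 1 TPM or more, Sgcd and Sspn had a highest line more than 1.5-fold above the lowest, beside 14.2% of the 12528 genes with such a mean. Sgcd was 1.95-fold apart and Sspn 1.53-fold, while Sgca was 1.33-fold, Sgcb 1.24-fold and Sgce 1.04-fold apart. None of the 5 was over 2-fold apart on TPM + 1, beside 4.05% of genes, but the constant of 1 holds down the fold of a gene as low as Sgcd, which was 3.18-fold apart on TPM + 0.1. The median over the 5 members was 1.33, beside 1.25 over the 18 partners and 1.20 over all genes tested. The count rested on 2 lines. Without line 66 or without line 72 it was 0, and without line 67 it stayed at 2. With TMM scaling or DESeq2 size factors Sspn fell under the threshold, at 1.46-fold and 1.47-fold, and the count was 1.

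Both Sgcd and Sspn were lowest in line 66 and highest in line 72, an order noticed after the values were seen. It was shared by 27.0% of the 12528 genes, and 3.54% had it together with a spread above 1.5-fold. On CPM, Sgcd in line 72 was 3.44 times its value in line 66 (95% counting interval 2.40 to 5.03) and Sspn 1.51 times (1.46 to 1.57). For Sgce the counting intervals of all pairs of lines included 1. For Sgca and Sgcb those of all pairs excluded 1. At this depth an interval without 1 therefore does not set Sgcd and Sspn apart. These intervals cover counting error only and not the spread between cultures.

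The same order of lines was seen in genes of muscle differentiation. Of 15 such genes, all at or above 1 TPM in every line, 14 were lowest in line 66 and highest in line 72. More than 1.5-fold apart were 13. Over the 12528 genes the shares were 27.0% and 14.2%. The list was chosen with earlier results of these data known, so its counts are no independent support for the order. Their summed level was 2076, 2957 and 3628 TPM, and Myog, the transcription factor that opens terminal differentiation, stood at 168, 222 and 310 TPM. The summed level of the 8 myoblast markers was 2545, 2504 and 2428 TPM. The fibroblast list was likewise lowest in line 66 and highest in line 72, with a summed level of 157, 239 and 311 TPM held mainly by Col3a1 and Col1a2, the only 2 of its 8 genes with that order. Pdgfra, Col1a1 and Dcn, all below 1 TPM, were highest in line 66, and Thy1 was lowest in line 72 (3.51, 5.80 and 3.26 TPM). The smooth muscle and pericyte list stood at 1154, 1028 and 1394 TPM. Of its 5 genes with a mean of 1 TPM or more, 1 had that order, Acta2 (209.4, 291.7 and 580.9 TPM). The part of these differences in the Sgcd and Sspn values was not tested. In bulk RNA, fewer cells that express a gene and less RNA of it per cell cannot be told apart. Among the 18 partner genes measured at 1 TPM or more, 5 were more than 1.5-fold apart and 5 had line 66 lowest and line 72 highest, with both in Dtna and Cav3, beside 14.2%, 27.0% and 3.54% of the 12528 genes. The share with that order of lines was thus near the background. Dtna, which encodes the cytoplasmic partner alpha-dystrobrevin, stood at 21.8, 28.2 and 34.01 TPM, and Cav3, the caveolin of muscle membranes, at 11.4, 17.2 and 18.1 TPM.

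Genes of chromosome 11, which holds Sgca and Sgcd, were as a group higher in line 66 than in the other lines. Each line was divided by the average of its counterparts, as a log2 ratio relative to the median of all 12528 genes tested. Over the 996 genes of chromosome 11 whose mean was 1 TPM or more the median of this ratio was 0.31, -0.17 and -0.13 in lines 66, 67 and 72. For Sgca the ratio was 0.40, -0.23 and -0.17, close to its chromosome in each line. For Sgcd, on the same chromosome, it was -0.67, 0.00 and 0.67, so that it lay 0.98 below its chromosome in line 66 (-0.98) and 0.80 above it in line 72. In line 66, 1.10% of the chromosome's genes had a lower ratio than Sgcd, and in line 72, 98.5%. Over the 594 such genes of chromosome 6 the median was -0.10, -0.04 and 0.15. Sspn had ratios of -0.36, -0.09 and 0.45, and in line 72 it was above 92.1% of them. Sgce, on the same chromosome, had 0.02, -0.01 and -0.01, where the sign in line 72 is not fixed, since it is 0.00 with TMM scaling. Sgcb had -0.25, 0.19 and 0.06 on chromosome 5, where the median was -0.01, 0.00 and 0.02. The reason for the shift of chromosome 11 was not tested.

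**Figure D3:**
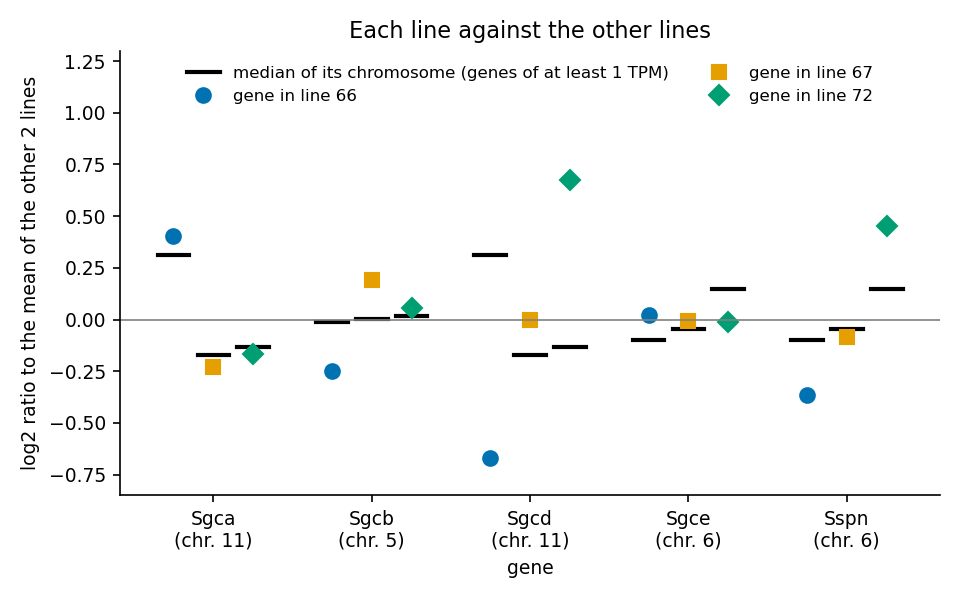
Log2 ratio, on TPM + 1, of each line to the average of the other 2 for the 5 genes whose mean was 1 TPM or more (points), with the median in that line over the genes of the same chromosome that pass that mean (black bars). Sgca ran with the median of chromosome 11, while Sgcd lay 0.80 above it in line 72 and was the lowest point in line 66.

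Sspn was read from an upstream and a downstream first exon. Sspn-201, with an open reading frame of 216 codons, starts at base 145934122 of chromosome 6 and had 3834, 3801 and 4647 estimated counts in lines 66, 67 and 72. Sspn-203 starts 2481 bases upstream and has a shorter open reading frame of 140 codons that begins in an exon both transcripts share. It had 788, 1138 and 2072 estimated counts, which is 16.9%, 23.0% and 30.7% of the gene (mean 23.5 ± 6.89, SD, n = 3). By level, Sspn-203 stood at 3.86, 6.08 and 10.9 TPM and Sspn-201 at 18.4, 19.9 and 23.9 TPM. Both were lowest in line 66 and highest in line 72, and the upstream transcript differed more between the lines. The split rests on the short stretches that only 1 of the transcripts holds, 234 of the 31-base words for Sspn-203 and 250 for Sspn-201, and the counts are the authors' estimates.

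**Figure D4:**
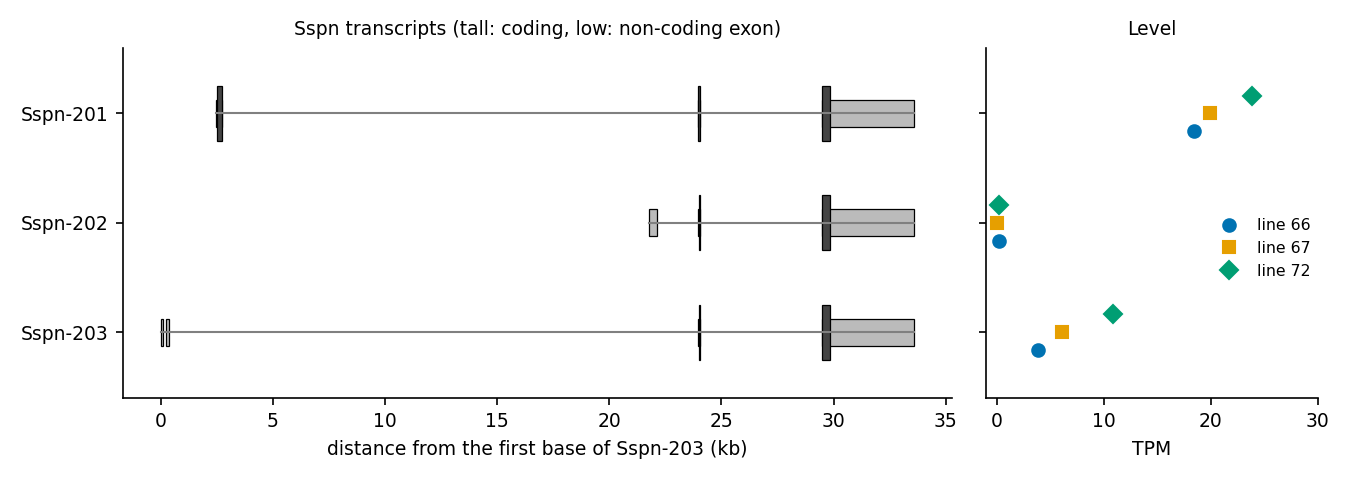
Exon map of the 3 Sspn transcripts, drawn to scale by distance from the first base of Sspn-203 in kb (tall boxes coding, low boxes non-coding), with the level of each transcript in TPM per line at the right. Sspn-203 stood at 3.86 to 10.9 TPM and Sspn-201 at 18.4 to 23.9 TPM.

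The 250 bases before the start of Sspn-201 (RefSeq, GRCm38.p6, chr6:145933872-145934121, plus strand) are shown because the RefSeq start coincides with that of the transcript holding most Sspn counts. Capitals mark the E-box words CANNTG, the core word of myogenic bHLH factors, which reads the same on both strands.
Sspn: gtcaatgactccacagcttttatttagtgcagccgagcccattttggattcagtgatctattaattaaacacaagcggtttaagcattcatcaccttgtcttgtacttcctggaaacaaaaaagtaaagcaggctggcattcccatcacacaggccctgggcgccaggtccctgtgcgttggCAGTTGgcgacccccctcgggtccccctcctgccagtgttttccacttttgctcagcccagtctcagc
A single match, CAGTTG at position -68 from the start, was found. Of all 32851 promoter windows of 300 bases (250 before to 50 after a start) in the table, 72.3% hold CANNTG, so that a match is no mark of these genes.

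Sgca was also read from 2 first exons. Sgca-201, with 387 codons, had 5207, 3441 and 4021 estimated counts. The transcripts that begin 2864 bases upstream of it, Sgca-202 and Sgca-205, together had 1229, 817 and 670 estimated counts, or 16.9%, 16.8% and 12.4% of the gene (mean 15.3 ± 2.55, SD, n = 3). Lines 66 and 67 had nearly the same share and line 72 a lower one. Neither Sgca-201 nor Sgca-205 holds a 31-base word of its own, so the counts of single Sgca transcripts are the authors' split of shared reads, while the upstream class holds 217 words found in no other Sgca transcript. The RefSeq start of Sgca coincides with the upstream start, and the 250 bases before it (RefSeq, GRCm38.p6, chr11:94976328-94976577, minus strand) are shown as the promoter of that minor class, with CANNTG in capitals.
Sgca: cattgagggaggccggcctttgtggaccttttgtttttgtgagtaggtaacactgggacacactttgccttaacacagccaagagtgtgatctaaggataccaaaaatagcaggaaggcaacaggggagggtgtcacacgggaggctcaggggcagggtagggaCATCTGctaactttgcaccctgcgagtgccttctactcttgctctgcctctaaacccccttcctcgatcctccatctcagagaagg
The word CATCTG lies at position -86, and a further one, CAAATG, at position 27 after the start. The word CAGCTG, held by 16.3% of all windows, was in none of the 5 windows of Sgca, Sgcb, Sgcd and Sspn. The Sgcb window and the upstream Sspn window had no CANNTG. The RefSeq starts of the windows lie downstream of the transcript starts by 232 bases for Sspn-203, 197 for Sgcd-201 and 53 for Sgcb-201. Most of the upstream Sspn window thus lies after the start of Sspn-203. The Sgcb window held 24 CpG, against 4 for Sgca, 12 for Sgcd, 8 for Sspn-201, 2 for the upstream Sspn window and a median of 7 over all windows. The table held no window for Sgce and Sgcz.

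Sgce had the most transcripts in use, yet 1 of them, Sgce-205 with 437 codons, carried 1602, 1376 and 1589 of its estimated counts. Sgce-205, Sgce-202, Sgce-204 and Sgce-209 hold no 31-base word of their own, so their counts too are the authors' split of shared reads. The 7 protein-coding transcripts together held 98.3% ± 0.336 of the counts (SD, n = 3). They differ in small exons that keep the reading frame or change the end of the protein. The 27-base exon of 9 codons near the end (chr6:4690469-4690495, minus strand, GRCm38) was in transcripts with 96.9%, 95.6% and 97.0% of the protein-coding counts (mean 96.5 ± 0.799, SD, n = 3). The sequence around it is shown with the exon in capitals, beside the junction of Sgce-202, which skips it.
Sgce-205: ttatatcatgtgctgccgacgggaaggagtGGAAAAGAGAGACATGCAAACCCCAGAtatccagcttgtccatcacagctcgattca
Sgce-202: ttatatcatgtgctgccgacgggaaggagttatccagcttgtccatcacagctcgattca
The protein-coding transcripts with the exon hold 32 words found in no other member transcript. The 3 without it, Sgce-201, Sgce-202 and Sgce-203, hold 60, of which 30 occur only in Sgce-201. Sgce-201 had 31.8 of the 59.1 counts without the exon in line 66 and 0 in lines 67 and 72. In all 3 lines the exon was nearly always included.

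Other Sgce exons were rare. Sgce-204 adds a 108-base exon of 36 codons (chr6:4730006-4730113, minus strand) and had 58.9, 116 and 143 estimated counts, or 3.09%, 6.85% and 7.71% of the protein-coding counts. The share was lower in line 66 than in the other lines, but the exon has no word of its own, because the retained-intron transcript Sgce-211 contains it too. The exon is in capitals between its neighbours.
Sgce-204: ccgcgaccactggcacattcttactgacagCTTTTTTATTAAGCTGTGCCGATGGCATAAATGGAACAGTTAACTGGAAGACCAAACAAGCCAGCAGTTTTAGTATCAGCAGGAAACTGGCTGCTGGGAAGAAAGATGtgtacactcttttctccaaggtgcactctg
A 71-base exon (chr6:4677163-4677233, minus strand) that gives the protein another end is held by Sgce-209, and the transcripts with it had 114, 51.3 and 66.6 estimated counts, or 5.97%, 3.02% and 3.59%. The coding bases of that exon are in capitals.
Sgce-209: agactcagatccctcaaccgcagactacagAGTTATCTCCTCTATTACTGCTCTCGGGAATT
Sgce-207, which lacks a 123-base exon of 41 codons, had 71.2, 78.7 and 0.280 estimated counts. It has 28 words of its own, and its counts are the authors' estimates. Whether the split of reads shared with other transcripts differed between the lines was not tested.

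**Figure D5:**
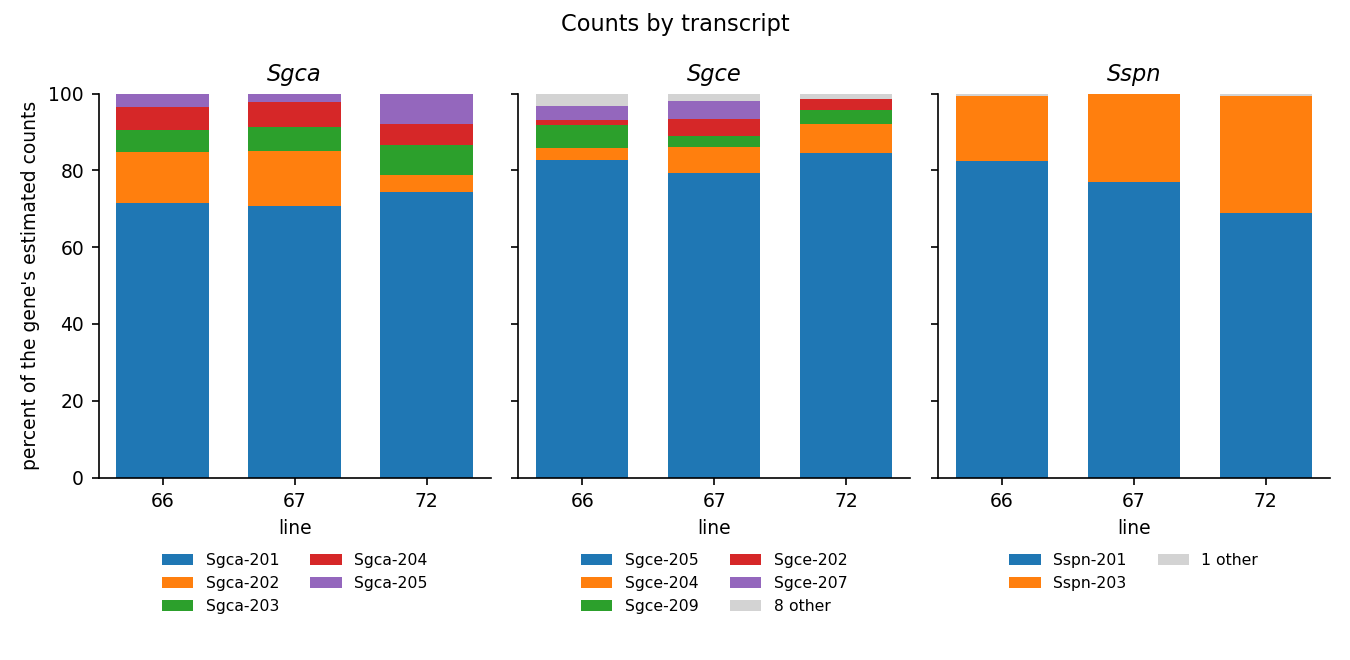
Percent of the estimated counts of Sgca, Sgce and Sspn held by each transcript (stacked bars) in lines 66, 67 and 72. Sspn-203 took 16.9% to 30.7% of the Sspn counts, and Sgce-205 held most of the Sgce counts in every line.

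Nearly all counts of Sgcb and Sgcd fell on 1 transcript each. Sgcb-201, with 320 codons, had 5522, 6276 and 6315 estimated counts, and the retained-intron transcript Sgcb-202 had at most 8.26. Sgcd-201, with 289 codons, held all but at most 1.03 of the Sgcd counts, and Sgcd-202 and Sgcd-203 were at 0 in every line. Sequence shared with other genes was small. All 31-base words of Sgca, Sgcb and Sgcd were found in no other gene, and the share was 99.8% for Sgce, 99.7% for Sgcz and 99.1% for Sspn. The words that Sspn shared belong to Sspnos, a gene on the opposite strand with 0, 0 and 5 estimated counts. The libraries were stranded, but whether reads were assigned by strand was not tested.

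The genes next to each member had levels of their own. Peg10, an imprinted gene known to be read from the paternal allele, as Sgce is, begins 98 bases from Sgce on the opposite strand and stood at 159.8, 174.2 and 171.9 TPM (mean 169 ± 7.73 TPM, SD, n = 3), several times the level of Sgce. Casd1, on the other side of Sgce, stood at 23.0 ± 4.75 TPM. Of 10 genes of this imprinted domain, 8 reached 1 TPM in every line and 1 of these, Pdk4, was more than 1.5-fold apart between lines, beside 33.8% and 14.2% of genes. Col1a1, the collagen gene next to Sgca at a distance of 9748 bases, was low (0.311, 0.103 and 0.193 TPM), and Ppp1r9b on its other side stood at 24.3 ± 2.63 TPM. Lrrc66 and Spata18, which flank Sgcb, were each below 1 TPM in every line. Bhlhe41 and Itpr2, which flank Sspn, stood at 24.0 ± 5.93 and 3.48 ± 0.233 TPM (SD, n = 3).

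The genes most like each member across the 3 lines were found by the distance between centred log2(TPM + 1) values among the 8428 genes whose mean was 10 TPM or more. They were Galt for Sgca, Rnf141 for Sgcb, Elp3 for Sgce and Hibadh for Sspn. With 3 lines many genes are alike by this measure. Within a distance of 0.05 there were 654 genes for the flat Sgce, 189 for Sgcb, 84 for Sgca and 13 for Sspn.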

How the data were processed

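RNA-seq libraries of 3 edited myoblast lines (stranded, poly-A-enriched) were used, with the line as replicate and 1 library per line. Per the labels the reads were processed with bcl2fastq 2.20, fastp 0.20 and kallisto 0.46.1, with the build GRCm39 named and the annotation release not given in the sources used here. The authors deposited, per transcript, an estimated count, split between transcripts that a read fits and not normalized, and a TPM value, the count over the effective length scaled to 1000000 per library. The deposited effective length differs between libraries and can exceed the transcript length, which changes TPM.

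Of 121798 transcripts, 120686 were matched by identifier to GENCODE M21 (GRCm38), the source of names and coordinates. The rest held 0.493% to 0.535% of counts and were left out. Counts and TPM were summed per gene. Lines were compared on TPM + 1 without a p-value, called apart above 1.5-fold for genes of 1 TPM or more on average. Neighbours in level were compared by exact two-sided sign-flip permutation. Counting intervals (95%) are exact binomial. Markers and lists were chosen with earlier results of these data known. Members were set by name, with no expression value in the rule, also when such results were known. The named genes were members, list genes, neighbours on the chromosome and nearest genes by pattern. Alternatives were CPM, protein-coding transcripts, a pseudocount of 0.1, a mean of 10 TPM, 2-fold, TMM (edgeR 4.0.16), DESeq2 1.42.0 size factors, 21-base words and each line left out. Proteins were not compared, and 1 gene planned for the partner list is not reported here. Methods were tested on simulated data in R 4.3.3 and Python 3.11.15, using scipy 1.17.1, pandas 2.3.3, numpy 2.4.6 and, for plots, matplotlib 3.10.9.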

Additional observations from a re-analysis of the deposited data

How the results depend on the processing

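The number of members more than 1.5-fold apart between lines (2) was 1 with genes limited to 10 TPM or more on average, where Sgcd was not included, and 0 with a threshold of 2-fold on TPM + 1, where Sgcd was 1.95-fold apart (3.18-fold on TPM + 0.1). It was also 1 with TMM-scaled counts and with DESeq2 size factors, where Sspn came to 1.46 and 1.47. Leaving out a line gave 0 to 2. The 2 member values more than 1.5-fold from their chromosome, both of Sgcd, became 0 with genes limited to 10 TPM or more on average, because Sgcd was then not included. With 21-base words, 3 of the 6 members had over 99% of words in no other gene, where 31-base words gave 6.

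The other alternatives of counts (26 of 34) stayed within 1.5 times the value reported. The number of members at 1 TPM in every line was 4 to 5 on leaving out a line, the number of neighbouring pairs apart 4 to 5 (3 on CPM), the members with 1 transcript over 50% of TPM 4 (5 on estimated counts), and the partner genes at 1 TPM 18. On CPM, which are not per length, Sgcb (mean 86.4) stood above Sgca (83.1). For 4 of 6 members the CPM and TPM values differed by more than the SD of TPM between lines. The units differ, so this does not measure how stable a level is. Counts over the length of the leading transcript and the alternatives of the partner list were chosen after seeing the data. No paired analysis was possible because only 1 condition is held by the lines used. Depth limits Sgcz and the Sgcd, Sgce-204 and Sgce-207 values, which rest on at most 132, 143 and 78.7 counts per line.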
